A study of Mus musculus with 20 samples.

Results

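The mouse mitochondrial genome encodes 37 genes, and all 37 are listed on chromosome MT among the 54532 genes of the count table. Every gene so placed is described here, without regard to its level: 13 mRNAs for subunits of the respiratory chain, 2 rRNAs and 22 tRNAs. The bulk RNA libraries came from the Cre-less model, 10 from tumors and 10 from normal kidney. Its C57BL/6 mice carried LSL-Cas9/+ and Pax8 Cre/+, so that Cas9 was made in cells with a history of Pax8 expression, which include the renal tubule, and AAVs with sgRNAs against Vhl, Pbrm1, Keap1 and Tsc1 were injected into the kidney. The labels give no age. Normal kidney regions came from the same 10 mice as the tumors and carried the same germline alleles. Frozen tissue was pulverized whole, so every library mixes tumor or tubule cells with stroma, vessels and immune cells. RNA was selected by poly(A) before sequencing, and total counts lay between 14737516 and 26679704 per library.

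Transcript levels of the edited genes were read first. Vhl (-0.49 ± 0.12 (SE), adjusted p = 0.00179) and Tsc1 (-0.61 ± 0.18, adjusted p = 0.00871) were lower in tumors on the log2 scale, Keap1 was higher (0.83 ± 0.09, adjusted p = 1.3e-07), and Pbrm1 did not pass the test (-0.28 ± 0.19, adjusted p = 0.229); a transcript level does not measure editing. Markers of the labelled tissue were present. Summed over 12 genes, proximal tubule markers reached 2763 to 14195 CPM (counts scaled to a library of 1000000) in normal kidneys and 1259 to 10443 CPM in tumors. Of 20 libraries, 3 stood apart from their group by their mean correlation with its other members: normal kidney 9 (r = 0.88, TMM factor 0.749), tumor 7 (r = 0.878) and normal kidney 7 (r = 0.902), against 0.918 to 0.962 for the rest. For some of the results that rest on these libraries, values without them are given as well.

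Mitochondrial DNA is a small circle that is transcribed from both strands into long precursors. These are cut at the tRNAs that punctuate them into mRNAs, rRNAs and tRNAs, most mRNAs then receive a short poly(A) tail, and mitochondrial ribosomes translate them into core subunits of complexes I, III, IV and V, which assemble with many subunits made from nuclear genes. Complex II has no subunit of mitochondrial origin. Kidney tubules, and the proximal tubule and thick ascending limb above all, are rich in mitochondria because active salt and solute transport consumes much ATP.

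Part of the mitochondrial genome has a second, nuclear home, which bears on how its reads can be counted. By blastn against the GENCODE M21 transcripts of the mm10 genome, 7 of the 13 mRNAs matched unprocessed pseudogenes on chromosome 1 with over 99% identity, in the same order and on 1 strand, between positions 24611535 and 24616197. The matched stretch corresponds to MT positions 6390 to 11042, and 4140 aligned bases held 2 differences. A shift of 1 base lies between the copies of mt-Nd3 and mt-Nd4l. To show how little separates the 2 homes, a 120-base window of mt-Co2 (chrM:7457-7576, plus strand) is printed with the same window of its chromosome 1 copy Gm28661 (chr1:24615002-24615121, minus strand) and of a copy on chromosome 2, Gm13341 (chr2:22587411-22587530, minus strand); capitals mark bases of a copy that differ from mt-Co2.
mt-Co2: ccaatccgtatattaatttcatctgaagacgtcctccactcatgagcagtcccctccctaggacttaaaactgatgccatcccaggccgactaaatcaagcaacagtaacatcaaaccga
Gm28661: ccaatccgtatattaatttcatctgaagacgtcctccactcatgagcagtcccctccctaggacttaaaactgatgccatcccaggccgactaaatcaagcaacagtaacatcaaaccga
Gm13341: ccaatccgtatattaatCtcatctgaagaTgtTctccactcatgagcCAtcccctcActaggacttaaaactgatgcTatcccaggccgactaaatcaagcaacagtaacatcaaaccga

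The chromosome 1 copy was identical in this window, chosen as the 120 bases of mt-Co2 with the most differences from the chromosome 2 copy, which held 7. Of the 2 differences in the whole cluster, 1 stands in the first codon of mt-Nd3 (T3C, counted from the gene's first base), shown in capitals in mt-Nd3 (chrM:9459-9491, plus strand) and Gm28438 (chr1:24613087-24613119, minus strand).
mt-Nd3: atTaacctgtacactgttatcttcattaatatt
Gm28438: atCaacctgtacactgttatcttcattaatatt
Windows of 150 bases, the length of a read, were then compared. An exact match in a nuclear transcript was found for 99.8% of the windows of mt-Co3, 99.4% each of mt-Co2 and mt-Atp6, 98.0% of mt-Nd4l, 97.0% of mt-Nd3, 59.2% of mt-Nd4 and 23.6% of mt-Co1. No window of mt-Nd1, mt-Nd2, mt-Nd5, mt-Nd6, mt-Cytb, mt-Atp8 or the rRNAs had one. A read from a matched window fits both genomes equally, and the aligner and its treatment of such reads are not given in the sources used here, so the counts of these genes and of their copies are uncertain. mt-Atp8 has no annotated copy, but it lies between mt-Co2 and mt-Atp6 and shares 43 bases with mt-Atp6 (chrM:7927-7969). The shared bases lie within Gm10925, which matched mt-Atp6 from base 1 to 678 without a difference. On either side of mt-Atp8 the copies of mt-Co2 and mt-Atp6 keep the spacing of the mitochondrial genes. Nuclear sequence between the annotated copies was not searched, so whether the rest of mt-Atp8 is matched there is not known. In that shared stretch, printed because reads across it belong to both genes, capitals mark the start codon of mt-Atp6.
mt-Atp8 and mt-Atp6: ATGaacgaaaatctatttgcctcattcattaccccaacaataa

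The question of how much mitochondrial transcript tumors hold was put to the share of each library's counts that fell on the 37 genes. In normal kidneys the share lay between 7.12% and 12.2%, with a median of 8.84%. In tumors it lay between 2.09% and 4.93%, with a median of 3.63%. The groups did not overlap: the highest tumor (tumor 8) stayed below the lowest normal kidney (normal kidney 7). The means were 3.80% ± 0.845 and 9.00% ± 1.44 (SD, n = 10 each), a log2 ratio of -1.25. As a sum over the members this share is a description and was not tested. In bulk tissue, fewer cells rich in mitochondria and less mitochondrial RNA per cell cannot be told apart, and mitochondrial DNA was not measured.

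**Figure D1:**
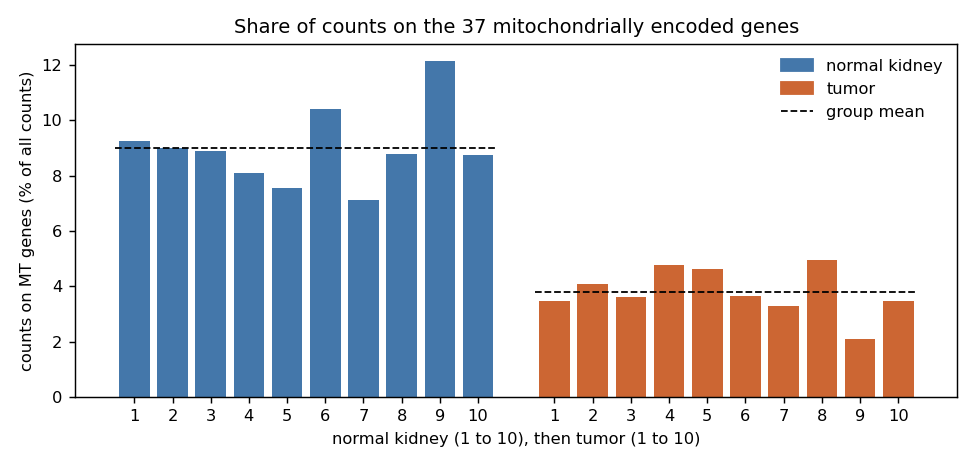
Bars show the percent of each library's counts on the 37 mitochondrially encoded genes, by library number within normal kidney (blue) and tumor (orange), and dashed lines are group means. All 10 tumors, 2.09% to 4.93%, sit below all 10 normal kidneys, 7.12% to 12.2%.

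Nearly all of this was mRNA. The 13 mRNAs made up 96.1% to 98.7% of the mitochondrial counts of normal kidneys and 93.0% to 98.3% of those of tumors, the rRNAs 1.12% to 3.56% and 1.45% to 6.47%, and the tRNAs 0.145% to 0.304% and 0.265% to 0.556%. Tumor 7 held the highest rRNA part. The tRNA part was higher in 9 of 10 tumors than in every normal kidney. Most tRNA counts were those of mt-Tp, so this part mainly follows 1 gene and not the tRNAs as a class. Over the 20 libraries mt-Tp took 42171 counts and the next, mt-Te, 8585. Mean levels of mt-Tp were 108 CPM in normal kidneys and 107 CPM in tumors, and those of mt-Te 32.7 and 10.4 CPM.

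Gene by gene, 26 of the 37 genes passed the filter on low counts: all 13 mRNAs, both rRNAs and 11 of the 22 tRNAs. With edgeR (quasi-likelihood test, Benjamini-Hochberg adjusted over 15354 genes), 20 of the 26 passed an adjusted p of 0.05 as lower in tumors and 0 as higher, where 23.8% of all genes tested were lower and 23.6% higher. The 0 stood at an unadjusted p under 0.05 and by DESeq2, while limma-voom called 1, the tRNA mt-Tp. A fall of more than 1 on the log2 scale with an unadjusted p under 0.001 was met by 12 of the 26, against 10.2% of all genes. In 8 of the 26, all of them mRNAs, every tumor lay below every normal kidney, against 4.74% of all genes. The 13 mRNAs all fell, with log2 fold changes from -3.13 to -0.90 and a median of -1.51, beside a median of -0.02 over all genes.

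Without normalization factors (library totals), the median over all genes moved to -0.14 and that of the mRNAs to -1.62, and 38.6% of all calls were higher instead of 49.8%. Relative to all genes the difference of the 2 medians was -1.48, against -1.49 with TMM. Without normal kidneys 7 and 9 and tumor 7 the mRNA median was -1.34, and 20 genes were called lower.

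**Figure D2:**
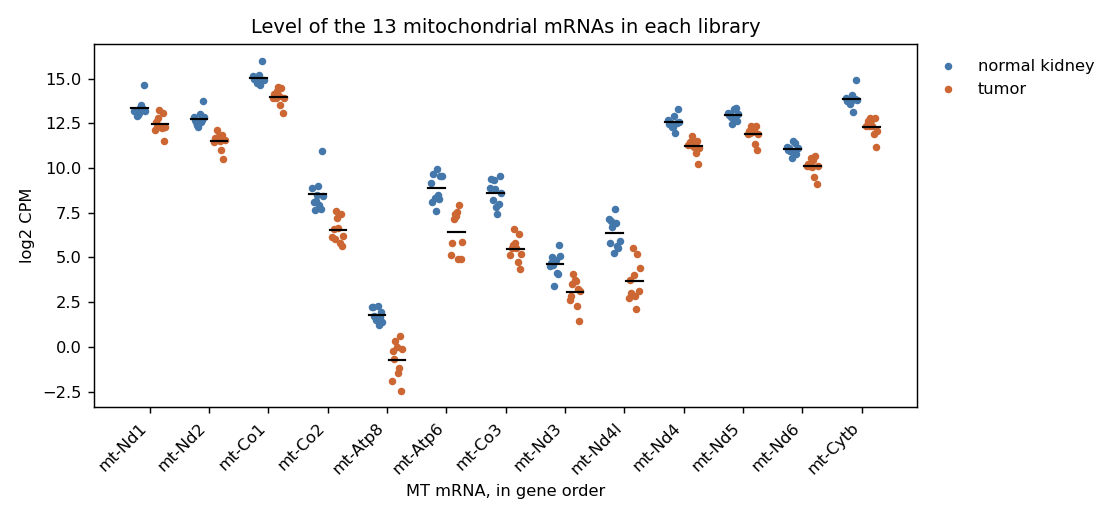
Each point is 1 library's log2 CPM of a mitochondrial mRNA (CPM with TMM factors and a prior count of 2), in gene order, normal kidneys in blue and tumors in orange, with black bars at the group means. Tumor means are lower for all 13 mRNAs; the points of the groups are fully separate for 8, and normal kidney 9 is the highest normal kidney for mt-Nd1, mt-Co1 and mt-Cytb.

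Complex I, which passes electrons from NADH to ubiquinone, takes 7 of its subunits from mitochondrial mRNAs, and all 7 fell. mt-Nd1, which encodes a subunit at the ubiquinone site, was measured at 7804 to 25428 CPM in normal kidneys (median 9312) and 2918 to 9715 CPM in tumors (median 5095). Tumors 5 and 8 were high enough to reach into the range of normal kidneys, and normal kidney 9 stood far above the others. The log2 fold change was -0.90 ± 0.24 (SE), adjusted p = 0.00446, the smallest fall of the 13. Without normal kidney 9 the change was -0.68 (adjusted p = 0.00486). For mt-Nd2, a subunit of the proton-pumping membrane arm, normal kidneys spanned 5051 to 13647 CPM (median 6509.9) and tumors 1443 to 4481 CPM (median 3083), without overlap, with a change of -1.24 ± 0.21, adjusted p = 4.13e-05. The long mt-Nd4 (1378 bases) and mt-Nd5 (1824 bases), which encode further proton-pumping subunits, were also separate between the groups: mt-Nd4 had 3980.2 to 10139 CPM in normal kidneys and 1195 to 3469.7 CPM in tumors (-1.34 ± 0.19, adjusted p = 6.71e-06). mt-Nd5 had 5583 to 10337 CPM and 2077 to 5293 CPM (-1.02 ± 0.18, adjusted p = 6.28e-05).

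The remaining complex I mRNAs differ from these in strand or in length. mt-Nd6, the 1 mRNA encoded on the minus strand, lay between 1517 and 2908 CPM in normal kidneys (median 2118) and between 548 and 1653 CPM in tumors (median 1105). Tumor 8 reached into the normal range, and the change was -0.94 ± 0.18, adjusted p = 0.000167. Its counts followed those of its opposite-strand neighbour mt-Nd5 closely, with 25.5 to 28.7 mt-Nd6 counts per 100 mt-Nd5 counts in normal kidneys and 26.4 to 32.1 in tumors. The genes overlap by 14 bases (chrM:13552-13565), whether counting used strand is not given in the sources used here, and without strand mt-Nd6 and transcripts from the opposite strand cannot be told apart. mt-Nd4l and mt-Nd3, short genes of 297 and 348 bases with a chromosome 1 copy, were far less abundant. mt-Nd4l ranged from 38.3 to 211 CPM in normal kidneys (median 82.1) and from 4.22 to 46.7 CPM in tumors (median 10.8), a change of -2.51 ± 0.44, adjusted p = 7.4e-05, with tumor 4 the 1 tumor inside the normal range. mt-Nd3 ranged from 10.5 to 51.2 CPM and from 2.61 to 16.7 CPM (-1.51 ± 0.30, adjusted p = 0.000268), with 4 tumors inside the normal range.

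Complex III passes electrons from ubiquinol to cytochrome c, and its cytochrome b subunit is its only mitochondrial product. In normal kidneys mt-Cytb was next to mt-Co1 the most abundant mRNA per kilobase, whereas in tumors the median of mt-Nd1 (5324 CPM per kilobase) was above that of mt-Cytb (4515). Normal kidneys held 9069.7 to 30573 CPM (median 14050.0) and tumors 2321 to 7228 CPM (median 5165). The groups did not overlap, and the change was -1.55 ± 0.23, adjusted p = 8.77e-06.

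Complex IV, cytochrome c oxidase, reduces oxygen with a catalytic core of 3 mitochondrial subunits. mt-Co1, which encodes the subunit that holds the oxygen-reducing centre, took more counts than any other mitochondrial gene, 25477 to 65816 CPM in normal kidneys (median 31538) against 8511 to 23173 CPM in tumors (median 16248). Every tumor lay below every normal kidney, with a change of -1.05 ± 0.21, adjusted p = 0.000372. mt-Co2, which encodes the subunit that receives electrons from cytochrome c, was separate too, but at a much lower level: 199 to 2003 CPM in normal kidneys (median 319.6) and 49.2 to 195 CPM in tumors (median 83.9). Normal kidney 9 was 2003 CPM, and the next highest normal kidney had 511 CPM. The change was -2.27 ± 0.41, adjusted p = 0.000121, and -1.68 (adjusted p = 2.78e-05) without normal kidney 9. mt-Co3, the third core subunit, showed the largest fall of the 26 genes, from 172 to 738 CPM in normal kidneys (median 420.0) to 19.9 to 94.9 CPM in tumors (median 45.5), without overlap (-3.13 ± 0.32, adjusted p = 5.89e-08).

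Complex V, the ATP synthase, takes 2 membrane subunits from overlapping reading frames of 1 mRNA. mt-Atp6, whose product forms the proton channel with the c-ring, had 195 to 979 CPM in normal kidneys (median 468) and 29.7 to 245 CPM in tumors (median 100.1), with tumor 8 the 1 tumor inside the normal range (-2.26 ± 0.42, adjusted p = 0.000164). mt-Atp8 was the least abundant mRNA, at 2.19 to 4.82 CPM in normal kidneys and 0.0814 to 1.44 CPM in tumors, without overlap (-2.41 ± 0.37, adjusted p = 1.57e-05). Its counts ran from 2 to 84 per library, so a single value of it carries a large counting error. Per kilobase, the median normal kidney had 687 CPM of mt-Atp6 and 15.4 CPM of mt-Atp8, although the gene products come from the same transcript.

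Levels per kilobase set the mRNAs between mt-Co1 and mt-Nd4 apart from the rest. In the median normal kidney those outside this stretch, with its 2 ends, stood highest: mt-Co1 at 20413 CPM per kilobase, then mt-Cytb at 12282, mt-Nd1 at 9730.4, mt-Nd2 at 6272, mt-Nd5 at 4418, mt-Nd4 at 4218 and mt-Nd6 at 4081. The neighbours mt-Nd5, mt-Nd4 and mt-Nd6 overlapped in range. Then came a gap to mt-Atp6 at 687, mt-Co3 at 536, mt-Co2 at 467, mt-Nd4l at 276, mt-Nd3 at 71.5 and mt-Atp8 at 15.4 CPM per kilobase. These 6 are the genes between mt-Co1 and mt-Nd4, the stretch that the chromosome 1 copies span.

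Of these 6 genes, 5 had the 5 largest falls of the 13. This grouping by copy was made after the values were seen. The 5 mRNAs with over 90% of windows matched fell by a median of 2.27 on the log2 scale (range -3.13 to -1.51), the 2 partly matched ones by 1.19 (-1.34 and -1.05), and the 5 unmatched ones other than mt-Atp8 by 1.02 (-1.55 to -0.90). mt-Nd3, at -1.51, and mt-Cytb, at -1.55, have similar values across the classes. Whether these differences belong to the transcripts or to the assignment of shared reads was not tested, since the reads were not used here.

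**Figure D3:**
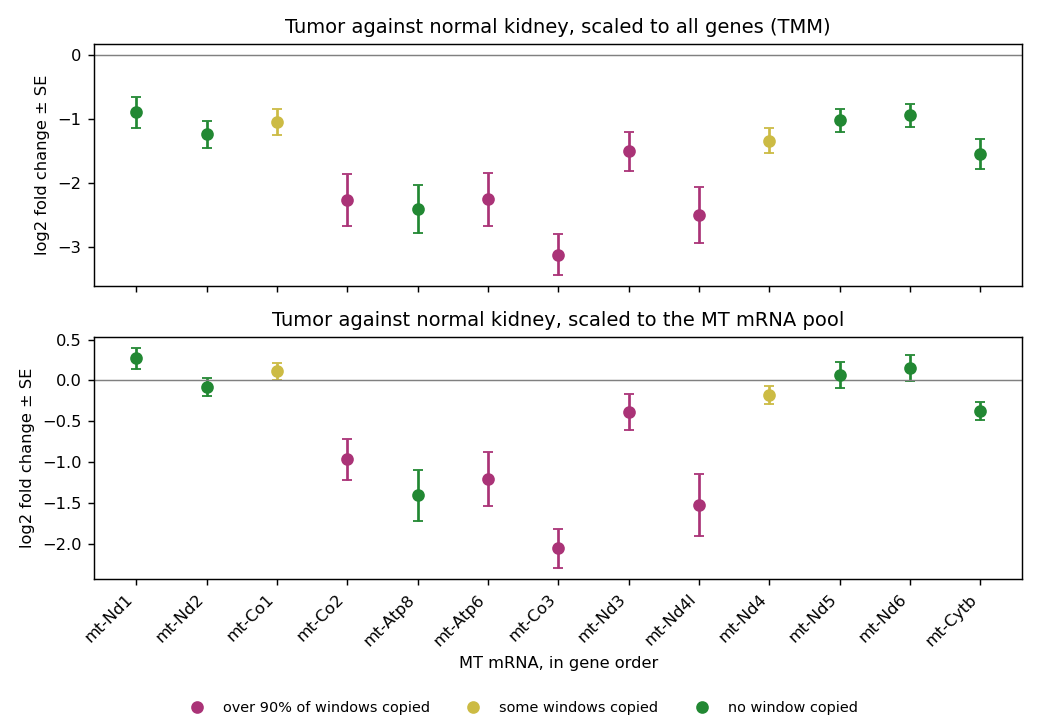
Points are log2 fold changes of the 13 mRNAs with their standard errors, in gene order, with counts scaled to all genes (top) and to the summed mRNA counts (bottom). Colour marks the share of 150-base windows with an exact match in an annotated nuclear transcript. Sequence between annotated copies, where most of mt-Atp8 would fall, was not searched. mt-Co2, mt-Atp8, mt-Atp6, mt-Co3 and mt-Nd4l lie below -2 at the top and below -0.9 at the bottom.

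The copies on chromosome 1 were counted as well, and 6 of the 7 were lower in tumors by edgeR, against 23.8% of all genes tested. As a matched read fits both genomes, these counts may repeat those of the mitochondrial genes, which was not tested. Gm28661, the copy of mt-Co2, had 142 to 653 CPM in normal kidneys and 30.7 to 104 CPM in tumors (-1.62 ± 0.28 (SE), adjusted p = 5.97e-05). Gm10925, the copy of mt-Atp6, had 129.9 to 382 and 16.1 to 88.7 CPM (-2.02 ± 0.29, adjusted p = 6.52e-06). Of the 7 copies, 6 were lower in every tumor than in every normal kidney, against 4.74% of all genes tested. The exception was Gm10222, the copy of mt-Nd4l, with 43.9 CPM in tumor 4 against at most 38.7 in normal kidneys; it missed the threshold by edgeR with all libraries (-1.10 ± 0.46, adjusted p = 0.0533) and passed it without tumor 4 (-1.96, adjusted p = 6.47e-06) and by DESeq2 (-1.80, adjusted p = 2.39e-09).

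Each copy's part of the summed counts of its pair was described next. Which genome the reads behind these counts came from was not tested. Gm28661 held 24.6% to 52.2% of the counts of its pair with mt-Co2. Gm10925 held 14.6% to 65.7% of its pair with mt-Atp6, and Gm28437 9.97% to 41.5% of its pair with mt-Co3. By contrast Gm28439 held 0.431% to 1.22% of its pair with mt-Nd4, and Gm29216 0.116% to 0.402% of its pair with mt-Co1. The medians of Gm28439 were 0.950% in normal kidneys and 0.590% in tumors, and those of Gm29216 0.244% and 0.148%. When the counts of each pair were added before the fit, an alternative chosen after the data were seen, mt-Co3 changed by -2.82, mt-Atp6 by -2.19, mt-Nd4l by -2.16, mt-Co2 by -2.03 and mt-Nd3 by -1.59 on the log2 scale, at adjusted p of edgeR between 7.67e-08 and 0.000267. All 5 stayed lower in tumors. Reads that the authors' counting may have set aside as ambiguous are in neither count.

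Which transcripts took a smaller or larger part of the mitochondrial pool was asked in a second fit, in which the library size was the summed count of the 13 mRNAs. On this scale the median over all genes was 1.18, 5.24% of all genes tested were lower and 76.7% higher. Of the 13 mRNAs, 6 were lower at an adjusted p under 0.05 and 0 higher. No mRNA was higher at an unadjusted p under 0.05 either, while limma-voom called 1, mt-Nd1. The 6 were mt-Co3 (-2.06 ± 0.24 (SE), adjusted p = 1.74e-07), mt-Nd4l (-1.53 ± 0.38, adjusted p = 0.000913), mt-Atp8 (-1.41 ± 0.31, adjusted p = 0.000305), mt-Atp6 (-1.21 ± 0.33, adjusted p = 0.00185), mt-Co2 (-0.97 ± 0.25, adjusted p = 0.00121) and mt-Cytb (-0.38 ± 0.11, adjusted p = 0.00293). The call of mt-Cytb was lost when no gene was filtered (adjusted p = 0.121, same fold).

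In percent of the pool, mt-Cytb took 13.6% to 19.7% in normal kidneys (median 17.8%) and 12.1% to 14.9% in tumors (median 13.6%). Normal kidney 7, at 13.6%, was the 1 normal kidney among the tumors' values, and the next lowest had 17.4%. mt-Co1 took 37.9% to 42.0% in normal kidneys and 40.9% to 45.2% in tumors, and 9 of 10 tumors exceeded every normal kidney, though its log2 change of 0.11 ± 0.10, adjusted p = 0.291 did not pass the test. mt-Nd1 took 10.0% to 17.9% in normal kidneys and 12.7% to 18.9% in tumors, with normal kidneys 7 and 9 at 17.9% and 16.2% and the other normal kidneys at no more than 12.5%. Its change was 0.27 ± 0.13, adjusted p = 0.0679. It passed without normal kidney 7 (0.34, adjusted p = 0.0146), without normal kidney 9 (0.32, adjusted p = 0.0314) and without both and tumor 7 (0.38, adjusted p = 0.00496).

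mt-Nd2 (-0.08 ± 0.11), mt-Nd4 (-0.18 ± 0.11), mt-Nd5 (0.07 ± 0.16) and mt-Nd6 (0.15 ± 0.16) had log2 changes within the pool that did not pass edgeR's test, with standard errors of at most 0.16. mt-Nd3 did not pass by edgeR with all libraries (-0.39 ± 0.22, adjusted p = 0.103) and passed without normal kidney 5 (-0.47, adjusted p = 0.0455). By limma-voom 8 mRNAs were lower within the pool, among them mt-Nd3 (-0.50, adjusted p = 0.0108) and mt-Nd4 (-0.20, adjusted p = 0.00593). The 5 copied mRNAs together took only 1.02% to 2.28% of the pool in normal kidneys and 0.433% to 1.05% in tumors.

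The rRNAs, which form the core of the mitochondrial ribosome, moved less evenly. mt-Rnr2, the large-subunit rRNA, had 539.8 to 2429 CPM in normal kidneys (median 846) and 341 to 1133 CPM in tumors (median 500.3), and was lower in tumors (-0.95 ± 0.28, adjusted p = 0.0074). mt-Rnr1, the small-subunit rRNA, had 259.6 to 2159 and 174 to 799 CPM and did not pass (-0.55 ± 0.32, adjusted p = 0.17). Normal kidney 9 and tumor 7 were the highest of their groups for both. Without normal kidneys 7 and 9 and tumor 7 the changes were -0.73 (adjusted p = 0.000524) and -0.26 (adjusted p = 0.349). Within the pool mt-Rnr1 was higher in tumors (0.77 ± 0.28, adjusted p = 0.0135) and mt-Rnr2 did not pass (0.35 ± 0.29, adjusted p = 0.267) except by limma-voom (0.39, adjusted p = 0.0398). Both values lay below the median of all genes on this scale, 1.18, where 76.7% of all genes were higher. Per 100 mRNA counts there were 1.13 to 3.71 rRNA counts in normal kidneys and 1.47 to 6.95 in tumors, of which tumor 7 held the highest and the next had 3.14. How well a poly(A)-selected library reflects rRNA was not tested.

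tRNA genes, whose products carry amino acids to the mitochondrial ribosome, were read thinly. Each is 59 to 75 bases long, and a full read of 150 bases counted on 1 of them extends past the gene. RNA was also selected by poly(A), so these counts are not a measure of mature tRNAs. How many came from longer transcripts that run across the genes was not tested. mt-Tf and mt-Td had 0 counts in all 20 libraries, which allows up to 3 counts per library, a limit for counting error only. Of the 22, 11 passed the filter and 6 of these were lower in tumors, against 23.8% of all genes tested. The 6 were mt-Te (-1.65 ± 0.27, adjusted p = 3.01e-05), mt-Tg (-1.57 ± 0.47, adjusted p = 0.00868), mt-Tl1 (-1.35 ± 0.40, adjusted p = 0.0078), mt-Ty (-1.01 ± 0.31, adjusted p = 0.011), mt-Tl2 (-1.08 ± 0.44, adjusted p = 0.046) and mt-Tc (-0.84 ± 0.34, adjusted p = 0.0472). The last 2 calls were marginal: leaving out 1 library ended that of mt-Tl2 for 13 of 20 libraries and that of mt-Tc for 12, with values between -1.22 and -0.89 and between -0.96 and -0.43. mt-Tn, mt-Th, mt-Ts2 and mt-Tw had log2 changes of -1.06 to -0.63 and did not pass. mt-Tw passed without normal kidney 5, its 1 library at 0 counts (-1.05, adjusted p = 0.017), and mt-Ts2 without normal kidney 9 (-1.20, adjusted p = 0.0466). By limma-voom mt-Ts2 (-1.13, adjusted p = 0.025) and mt-Th (-1.25, adjusted p = 0.0249) passed and mt-Tc did not (-0.43, adjusted p = 0.095).

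A pair of minus-strand tRNA genes, printed with the anticodon in capitals because their levels parted, flank mt-Cytb and the tRNA gene mt-Tt: mt-Te for glutamate (chrM:14071-14139) and mt-Tp for proline (chrM:15356-15422).
mt-Te: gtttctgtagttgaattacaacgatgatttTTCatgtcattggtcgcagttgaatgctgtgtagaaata
mt-Tp: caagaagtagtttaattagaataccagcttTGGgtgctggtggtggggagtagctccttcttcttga
mt-Te had 13.6 to 59.9 CPM in normal kidneys (median 31.6) and 6.03 to 17.3 CPM in tumors (median 9.86), of which tumors 4 and 6 reached into the normal range. mt-Tp, by contrast, had 68.5 to 289.8 CPM in normal kidneys (median 87.8) and 79.6 to 141 CPM in tumors (median 102), with normal kidney 9 far above every other library and the next normal kidney at 105 CPM. Its log2 change was -0.01 ± 0.21, adjusted p = 0.964 with all libraries and 0.28 (adjusted p = 0.0315) without normal kidney 9, a rise that 1 library decides. Relative to the pool it rose with and without that library (1.19 to 1.36 with any 1 library left out): there were 0.988 to 1.84 mt-Tp counts per 1000 mRNA counts in normal kidneys and 1.89 to 4.28 in tumors, without overlap, a log2 change of 1.27 ± 0.16, adjusted p = 4.29e-07. On this scale 76.7% of all genes were higher, with a median of 1.18, so mt-Tp rose against the mRNAs about as the median gene did. Of the other minus-strand tRNAs, mt-Tn was also higher in the pool (0.71 ± 0.29, adjusted p = 0.0302), a call that ended without normal kidney 2 or without tumor 3, 6 or 10 (0.60 to 0.66). Without strand the counts of mt-Tp and those of transcripts from the opposite strand cannot be told apart.

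**Figure D4:**
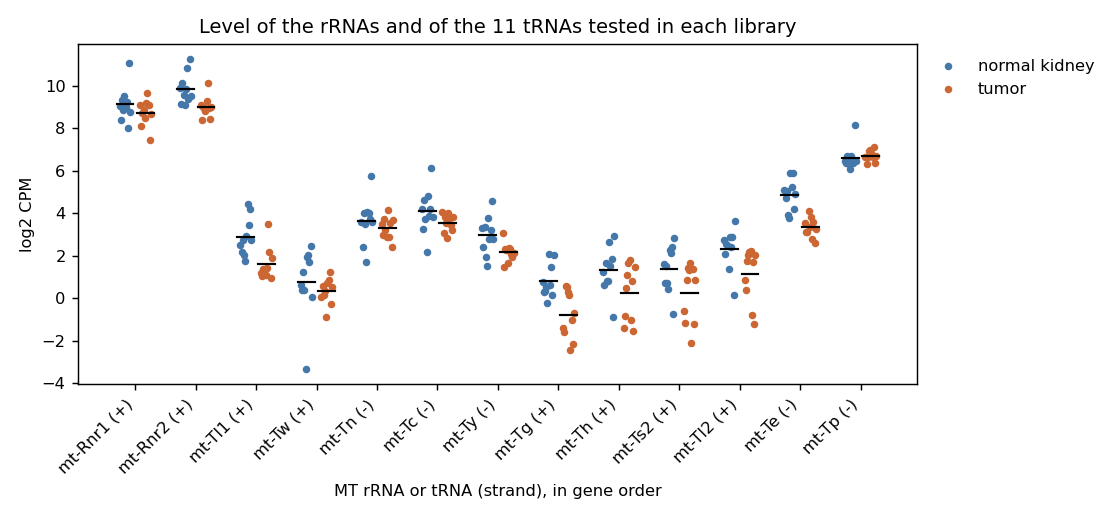
Each point is 1 library's log2 CPM of a mitochondrial rRNA or of 1 of the 11 tRNAs that passed the filter (strand in brackets), normal kidneys in blue and tumors in orange, with black bars at the group means. mt-Te is lower in tumors (median 9.86 against 31.6 CPM), mt-Tp has medians of 102 and 87.8 CPM with normal kidney 9 at 289.8 CPM, and 1 point of mt-Tw lies at 0 counts.

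The partner subunits that the nucleus encodes were read in the same fit, to show where the mitochondrial genes differ from them. Of 83 nuclear subunits of complexes I to V, 36 were lower, 1 was higher and 46 did not pass (limma-voom: 52 lower and 11 higher), with a median log2 fold change of -0.51, beside the -1.51 of the mitochondrial mRNAs and the -0.02 of all genes. Among all genes tested, 23.8% were lower and 23.6% higher. By complex, 17 of 37 were lower in complex I (median -0.51), 1 of 4 in complex II (-0.45), 5 of 9 in complex III (-0.52), 3 of 15 in complex IV (-0.16) and 10 of 18 in complex V (-0.55). Scaled to the mitochondrial pool, 78 of the 83 were higher in tumors (median 0.76), where 76.7% of all genes were higher. Mitochondrial mRNA counts per nuclear subunit count were 2.90 to 5.57 in normal kidneys and 1.66 to 3.20 in tumors, with 8 of 10 tumors below every normal kidney.

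**Figure D5:**
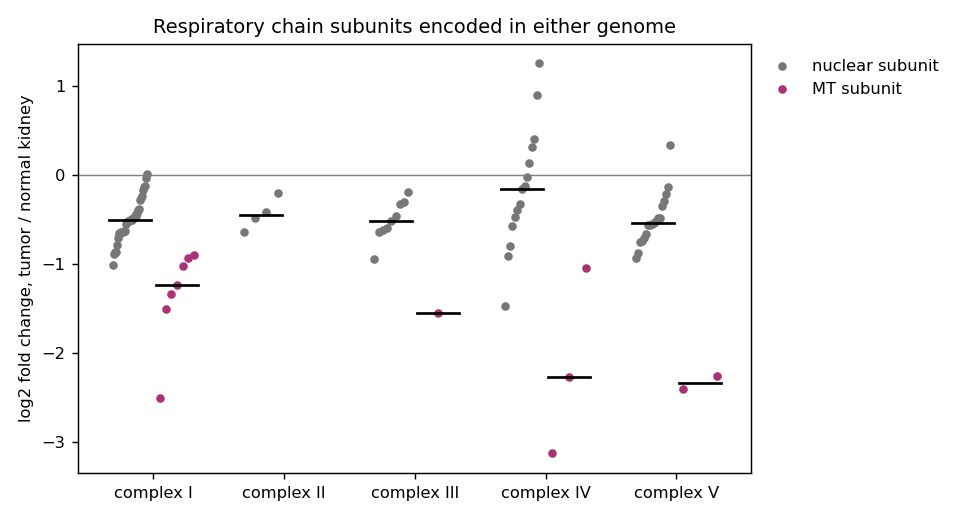
Each point is the log2 fold change, tumor over normal kidney, of 1 respiratory chain subunit, by complex, with nuclear subunits in grey, mitochondrial ones in purple and black bars at the medians. The mitochondrial medians, -1.24 in complex I, -1.55 in complex III, -2.27 in complex IV and -2.34 in complex V, lie below the nuclear ones.

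Single subunits show the spread. Ndufa4, a complex IV subunit, fell most, from 224 to 1094 CPM in normal kidneys to 92.3 to 152 CPM in tumors, without overlap (-1.47 ± 0.25 (SE), adjusted p = 4.6e-05). Cox6b2, an isoform of complex IV best known from testis, was the 1 subunit that rose, from 4.72 to 30.1 CPM to 14.5 to 30.8 CPM (1.25 ± 0.27, adjusted p = 0.000777), with overlapping ranges and normal kidney 9 the highest normal kidney. Sdha, the flavoprotein of complex II, was lower in tumors (-0.64 ± 0.18, adjusted p = 0.0055), as were Ndufb11 of complex I (-1.01 ± 0.26, adjusted p = 0.00343), Uqcrh of complex III (-0.95 ± 0.26, adjusted p = 0.00415) and Cox4i1 of complex IV (-0.91 ± 0.25, adjusted p = 0.00528). Atp5o of complex V fell likewise (-0.88 ± 0.24, adjusted p = 0.00528). Normal kidney 9 was the highest normal kidney for all of these but Sdha, with 1094 CPM of Ndufa4 and 2365 CPM of Cox4i1. With 1 library left out all these subunits kept direction and call, but the falls varied. Ndufa4 ran from -1.53 to -1.12, Ndufb11 from -1.08 to -0.62 and Uqcrh from -1.03 to -0.59. Cox4i1 ran from -0.99 to -0.55, Atp5o from -0.95 to -0.53 and Sdha from -0.71 to -0.57, and the rise of Cox6b2 from 1.17 to 1.63.

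Nuclear genes that transcribe, copy and translate the mitochondrial genome were listed by role. The counts of each list stand beside 23.8% lower and 23.6% higher over all genes tested. Of 11 genes of mitochondrial transcription, 8 were lower, 0 were higher by edgeR, by DESeq2, by limma-voom or at an unadjusted p under 0.05, and the median was -0.45. Tfam, which packages mitochondrial DNA and opens its promoters, had 37.2 to 65.3 CPM in normal kidneys and 24.1 to 36.6 CPM in tumors, without overlap (-0.67 ± 0.11, adjusted p = 2.62e-05). Polrmt, the mitochondrial RNA polymerase, had 29.2 to 50.5 and 16.1 to 33.8 CPM (-0.53 ± 0.12, adjusted p = 0.00114). The helicase Twnk, which unwinds mitochondrial DNA and was listed here, was lower too (-0.45 ± 0.18, adjusted p = 0.0439), but its call ended when any of 11 single libraries was left out (-0.44 to -0.39). That of Mterf2 (-0.71 ± 0.29, adjusted p = 0.0467), a member of the mitochondrial termination factor family, ended with any of 13.

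Of 19 genes of mitochondrial DNA replication and nucleotide supply, 5 were lower and 1 higher (median -0.13). Polg2, the accessory subunit of the DNA polymerase, fell without overlap, from 4.85 to 15.4 CPM to 2.05 to 4.42 CPM (-1.36 ± 0.21, adjusted p = 1.3e-05), while its catalytic subunit Polg did not pass (0.14 ± 0.13, adjusted p = 0.39). The topoisomerase Top1mt (-0.47 ± 0.17, adjusted p = 0.0268) was lower, but lost its call without normal kidney 9 and tumor 7 together (adjusted p = 0.0593). Rrm2b, a ribonucleotide reductase subunit that supplies nucleotides outside S phase, was the 1 that rose (0.40 ± 0.16, adjusted p = 0.0392), a call lost without any of 9 single libraries and under library totals (0.24, adjusted p = 0.253).

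Among 30 genes of RNA processing and decay 7 were lower, 1 was higher and the median was -0.08. Hsd17b10, a subunit of the enzyme that frees the 5′ ends of tRNAs, fell (-0.77 ± 0.22, adjusted p = 0.00668), as did Mto1, which modifies tRNAs (-0.62 ± 0.20, adjusted p = 0.0125). With 1 library left out the change of Hsd17b10 ran from -0.83 to -0.47. Lrpprc (0.27 ± 0.18, adjusted p = 0.214) and its partner Slirp (0.28 ± 0.32, adjusted p = 0.492), which together stabilize mitochondrial mRNAs, did not pass with all libraries. Slirp ranged from 0.507 to 4.89 CPM in normal kidneys, where normal kidney 9 was the highest, and from 1.32 to 2.76 CPM in tumors, and without normal kidney 9 it passed as a rise (0.70, adjusted p = 0.0068), as it did by limma-voom (0.97, adjusted p = 0.000119).

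In ribosome biogenesis 4 of 20 genes were lower and 1 higher (median -0.17). The rRNA methyltransferase Mrm1 rose (0.50 ± 0.14, adjusted p = 0.00503), and the GTPase Mtg2 (-0.78 ± 0.23, adjusted p = 0.00763) and the methyltransferase Mrm2 (-0.64 ± 0.18, adjusted p = 0.00625) fell. Among translation factors 4 of 15 were lower (median -0.21). Oxa1l, which inserts newly made mitochondrial proteins into the inner membrane, had the clearest fall, from 57.8 to 140.4 CPM in normal kidneys to 29.5 to 37.4 CPM in tumors, without overlap (-1.10 ± 0.14, adjusted p = 8.96e-07). Of 15 regulators of mitochondrial biogenesis 5 were lower and 1 higher (median -0.38). Ppargc1a, the coactivator PGC-1α, did not pass (-0.51 ± 0.33, adjusted p = 0.207), but passed by limma-voom (-0.63, adjusted p = 0.00303) and without normal kidneys 7 and 9 and tumor 7 (-0.62, adjusted p = 0.0117), while Ppargc1b fell (-0.78 ± 0.25, adjusted p = 0.0137). The estrogen-related receptor genes Esrrb (-8.34 ± 0.55, adjusted p = 1.25e-10) and Esrrg (-0.87 ± 0.25, adjusted p = 0.00652) fell, Esrrb from 19.9 to 80.9 CPM to at most 0.894 CPM. Over these lists and the subunits together, 68 of 192 nuclear genes were lower and 5 higher, against 23.8% and 23.6% of all genes. Of the 68, 36 were respiratory chain subunits and 8 were genes of mitochondrial transcription. In the other lists the lower genes were 5 of 19, 7 of 30, 4 of 20, 4 of 15 and 5 of 15, nearer to the share over all genes. The lower count ran from 47 with the replicate block and 54 without a filter to 101 by limma-voom, 103 under library totals and 103 with upper quartile factors, and limma-voom called 27 higher.

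Nuclear genes whose level followed the mitochondrial mRNAs from library to library were sought by Pearson's r with the mean log2 CPM of the 13 mRNAs, over 20 libraries after each group's mean was taken off. The values are descriptions, with no test, and the libraries share depth and tissue makeup. The 10 highest r were between 0.85 and 0.89. Gm28439 (0.89) and Gm29216 (0.87), 2 of the chromosome 1 copies, stood first, and the other 8 were Gstz1, an enzyme of tyrosine breakdown (0.87), Notum, a secreted carboxylesterase that inactivates Wnt proteins (0.86), Adtrp (0.86), Pde9a, a cGMP phosphodiesterase (0.85), Tlcd1 (0.85), Sat2 (0.85), Upb1, an enzyme of pyrimidine breakdown (0.85) and Treh, trehalase (0.85). Of these 8, 7 were lower in tumors and Sat2 did not pass (-0.40 ± 0.22, adjusted p = 0.147). Notum had r of 0.51 within normal kidneys and 0.97 within tumors, whereas Gstz1 had 0.94 and 0.91. Among the members, mt-Nd2 (0.92), mt-Co1 (0.91) and mt-Nd4 (0.91) followed the mean most closely, and mt-Tl1 (0.05), mt-Rnr2 (0.14), mt-Tw (0.31), mt-Ty (0.31), mt-Tc (0.34) and mt-Rnr1 (0.37) had the lowest r. Each mRNA is itself part of that mean, which raises its r, whereas the rRNAs and tRNAs are not. Gm28439 and Gm29216 match mt-Nd4 and mt-Co1, which are part of the mean. Whether shared reads raise the r of these copies was not tested.

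Markers of tubule segments moved with the groups, and their part in the lower mitochondrial counts was not tested. Over all genes tested, 23.8% were lower and 23.6% higher. Thick ascending limb markers were lower for 5 of 6 genes, with summed levels of 3694 to 9583 CPM in normal kidneys and 31.2 to 199.9 CPM in tumors. Distal convoluted tubule markers fell from 399 to 2378 CPM to 2.94 to 28.8 CPM (3 of 3 tested lower), and those of principal cells (5 of 5), intercalated cells (6 of 6) and podocytes (4 of 5) were mostly lower as well. Of 11 proximal tubule markers tested 4 were lower by edgeR and 0 higher, also at an unadjusted p under 0.05, with a median of -0.44. Macrophage markers were higher for 4 of 6 genes, at 107 to 484 CPM in normal kidneys and 253 to 1291 CPM in tumors. Fibroblast and pericyte markers were lower for 1 of 6, endothelial and cycling cell markers higher for 1 of 6 and 1 of 5, and T and NK cell and B and plasma cell markers lower for 1 of 4 and 2 of 2 tested. None of the 5 red blood cell and 3 fat cell markers tested passed, at an unadjusted p under 0.05 either. Tumor 7 stood apart with 7969.8 CPM of fibroblast and pericyte markers, and normal kidney 7 had the lowest sum for the proximal tubule, 2763 CPM. No marker gene was at 0 in every library of a group.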

How the data were processed

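Poly(A)-enriched RNA of 10 tumors and 10 normal kidney regions was sequenced by Novogene as paired reads of 150 bases. The authors deposited raw counts per gene for the 20 libraries, 1 column each (columns not used, 0), made against the mm10 genome per the submitters' processing notes. The aligner, the counter and the use of strand are not given in the sources used here. Groups came from the labels. The main fit did not pair libraries by mouse, although the same mice gave both tissues. Its p-values measure the spread between libraries within a group.

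From these counts, genes were kept by filterByExpr (minimum count 10), which left 15354 of 54532, and tumors were compared with normal kidneys by edgeR 4.0.16 (quasi-likelihood, TMM factors, R 4.3.3) with Benjamini-Hochberg adjustment over all genes tested. A second fit took the summed counts of the 13 mitochondrial mRNAs as library size, with factors of 1. CPM are counts per 1000000 of the library size after TMM, and the figures' log2 CPM hold a prior count of 2. limma 3.58.1 (voom with quality weights), DESeq2 1.42.0, other factors, no filter, a replicate block and left-out libraries served as alternatives. Scripts were tested on simulated data. Copies were sought by blastn 2.17.0 in GENCODE M21 transcripts (mm10 coordinates, from which all sequences come), keeping matches of at least 100 bases and 85% identity, and coordinates of 37 of 37 mitochondrial genes matched the table's.

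All 37 mitochondrial genes were considered. From each hand-written list of nuclear genes, up to 3 genes with the largest rise and 3 with the largest fall among those that passed could be named, with Polrmt, Tfam, Twnk, Polg, Lrpprc, Slirp, Top1mt and Ppargc1a always included, and the 10 nuclear genes most like the mRNAs. The members and lists were chosen with earlier results of these data known. The 7 copies on chromosome 1 were singled out after their values were seen. With total counts of at least 14737516 per library, depth limits only the tRNAs, mt-Atp8 and the rare copies, and intervals and limits cover counting error only.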

Additional observations from a re-analysis of the deposited data

Results flagged for a closer look

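In each group of 10 libraries, a value was singled out where its distance to the nearest other library, as a part of the group's whole range, exceeded Dixon's 95% limit, which chance passes in about 1 of 20 groups. Of 80 groups examined, 13 held such a value, and 9 of these were normal kidney 9.

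In log2 CPM, normal kidney 9 was the highest normal kidney for mt-Rnr1 (11.08, next 9.54), mt-Nd1 (14.63, next 13.54), mt-Nd2 (13.74, next 13.03), mt-Co1 (16.01, next 15.18), mt-Co2 (10.97, next 9.00) and mt-Tp (8.18, next 6.71). In the mRNA pool, its share of mt-Co2 was 1.27% (next 0.552%), while mt-Nd5 took 3.99% (next 8.05%) and mt-Nd6 1.14% (next 2.19%), the lowest shares among normal kidneys. Normal kidney 7 held the lowest share of mt-Cytb among normal kidneys, 13.6% (next 17.4%). Normal kidney 5, with 0 counts of mt-Tw, had the lowest log2 CPM of that tRNA (-3.33, next 0.05). Tumor 7 was the highest tumor for mt-Rnr2 (10.15, next 9.31) and mt-Tl1 (3.50, next 2.17). The cause of these values was not tested.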

How the results depend on the processing

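With 1 library left out, 18 to 21 mitochondrial genes were lower in tumors, the mRNA median was -1.60 to -1.36, 6 to 7 mRNAs were lower within the pool and the log2 ratio of the share was -1.29 to -1.18. The other alternatives gave 20 to 21 lower genes, medians from -1.64 (upper quartile factors) to -1.29 (without tumor 7 and normal kidney 9), and 5 (no filter) to 8 (limma-voom) lower in the pool. The share per count of nuclear subunits gave a log2 ratio of -0.76. The count of mitochondrial genes higher in tumors was 1 instead of 0 by limma-voom, without tumor 7 and normal kidney 9, and without normal kidneys 7 and 9 and tumor 7, and 0 to 1 with 1 library left out. That of mRNAs higher within the pool was 1, mt-Nd1, by limma-voom and without those 3 libraries, and 0 to 1 with 1 library left out. Lower nuclear genes numbered 58 to 82 with 1 library left out, and 103 instead of 68 under library totals and 103 with upper quartile factors, which moved the median of all genes to -0.14. mt-Tp turned to 0.01 without a filter, 0.21 by limma-voom, 0.28 without normal kidney 9 and tumor 7, 0.28 without all 3 libraries, and -0.07 to 0.28 with 1 library left out. mt-Nd5 within the pool ran from -0.02 to 0.12. The cause was not tested. Single mitochondrial genes kept direction and call in 760 of 806 values, the pool in 427 of 442 and named nuclear genes in 1654 of 1729.

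No label says that a number marks a mouse, and same-numbered libraries deviated together with r of -0.14 (number 9) to 0.38, over 0.1 in 9 of 10 pairs; 5 of 10 normal kidneys and 8 of 10 tumors correlated best with their own number. With the replicate number as a block, 20 mitochondrial genes were lower, 1 mRNA (mt-Nd1) was higher within the pool, mt-Tp changed by 0.12 (adjusted p = 0.658), mt-Tc lost its call (-0.51, adjusted p = 0.136) and mt-Th gained one (-1.13, adjusted p = 0.0208).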
